A study of Homo sapiens with 4 samples.

Results

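The accessory subunits of Polycomb repressive complex 2 (PRC2) were examined in K562 cells that express the JAZF1-SUZ12 fusion. They are proteins that bind the core subunit SUZ12 and are present in some PRC2 assemblies but not in others. They were taken by symbol from the count table, and 7 of 35606 genes matched, each in a single row. Of these, 5 belong to the PRC2.1 assembly (PHF1, MTF2, PHF19, EPOP and LCOR) and 2 to the PRC2.2 assembly (JARID2 and AEBP2). The series holds 2 poly(A)-selected, directional RNA-seq libraries from K562 cells labelled as JAZF1-SUZ12 and 2 from cells labelled as mock, with replicates numbered 1 and 2 in each group. The labels name no allele, agent or treatment beside the fusion, and the vector, the time after introduction of the fusion and whether the cells are a clone or a pool are not given in the sources used here. Nothing says that the libraries of a group came from separate cultures, so a p-value measures only the spread between these libraries, which may be technical.

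K562 is a human leukaemia line with erythroid features, whereas the source label of every sample names the uterus. All 10 erythroid marker genes had over 3 counts in every library, and their summed level was 8600 to 8890 CPM (counts per 1000000) in mock and 10200 to 10300 CPM in JAZF1-SUZ12 libraries. Of 10 stromal markers, 6 had over 3 counts in every library, and 2 (COL3A1 and LUM) had at most 3 counts in every library. The summed level of the 10 was 16.2 to 17.3 CPM in mock and 33.8 to 35.9 CPM in JAZF1-SUZ12 libraries. Of 4 lymphoid markers, 2 had over 3 counts in every library, while CD2 and MS4A1 had at most 3 counts in every library. The summed level of the 4 was 4.93 to 5.62 CPM in mock and 4.17 to 6.22 CPM in JAZF1-SUZ12 libraries. The part of the higher erythroid and stromal sums in the results below was not tested. JAZF1, the 5′ partner of the fusion, was counted 12 and 27 times in mock and 574 and 731 times in JAZF1-SUZ12 libraries, in the direction of the labels. The libraries held between 17261160 and 24423239 estimated counts.

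PRC2 methylates lysine 27 of histone H3, a mark of repressed genes. Its core is built from SUZ12, EED, a catalytic EZH1 or EZH2, and RBBP4 or RBBP7. SUZ12 is the scaffold: its N-terminal part is the platform on which the accessory subunits dock, and PRC2.1 and PRC2.2 subunits compete for it. The Polycomb-like proteins PHF1, MTF2 and PHF19 read methylated lysine 36 of histone H3 with a Tudor domain and bind DNA rich in unmethylated CG dinucleotides. EPOP links PRC2 to Elongin B and C, and the LCOR locus encodes PALI1, a PRC2.1 subunit, next to nuclear receptor corepressor proteins. JARID2 and AEBP2 contact nucleosomes that carry ubiquitinated histone H2A. The JAZF1-SUZ12 fusion, found in endometrial stromal sarcoma, lacks an N-terminal stretch of SUZ12, and the comparison made here is whether the transcripts of the accessory subunits differ between the groups.

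The start regions of PHF19 and JARID2 are shown because these were the most abundant PRC2.1 and PRC2.2 members by CPM. Each is the 250 bases before a RefSeq gene start (build GRCh38.p14), printed 5′ to 3′ on the gene's strand, with each CG dinucleotide in capitals.
PHF19 (chr9:120868912-120869161, minus strand): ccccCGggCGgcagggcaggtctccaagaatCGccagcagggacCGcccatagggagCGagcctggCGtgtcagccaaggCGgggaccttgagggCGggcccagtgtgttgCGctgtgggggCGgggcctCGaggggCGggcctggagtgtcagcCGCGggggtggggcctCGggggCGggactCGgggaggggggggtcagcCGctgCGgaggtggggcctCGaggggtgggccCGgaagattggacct
JARID2 (chr6:15248605-15248854, plus strand): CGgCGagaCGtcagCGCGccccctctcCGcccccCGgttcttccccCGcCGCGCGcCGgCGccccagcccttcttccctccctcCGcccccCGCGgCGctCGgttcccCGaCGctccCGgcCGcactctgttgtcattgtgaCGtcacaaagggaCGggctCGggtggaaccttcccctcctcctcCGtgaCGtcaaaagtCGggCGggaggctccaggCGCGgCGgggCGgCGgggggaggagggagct
Each gene has a second RefSeq window: that of PHF19 holds 39 CG, a count reached by 2.65% of windows, and overlaps an annotated PHF19 exon, for which reason it is not printed, and that of JARID2 holds 22. The printed PHF19 window lies within the gene upstream of an internal start and overlaps no exon in GENCODE 29. The printed JARID2 window also lies within the span of its gene and overlaps an exon of the antisense gene JARID2-AS1. The other JARID2 window (15245819 to 15246068) lies before the annotated span, which starts at 15246296. The printed PHF19 window holds 21 CG and the printed JARID2 window 34, a count reached by 30.2% and 6.84% of the 35116 RefSeq windows of the same length. Over the 9 windows found for 6 of the members, the number of CG ranged from 15 for PHF1 to 47 for LCOR, whereas the median of all windows was 11. CG reads the same on both strands, and 93.9% of all windows hold at least 1. The motif GATAA, part of the sequence bound by the erythroid factor GATA1, was searched on both strands. It was in 1 of the 9 windows, the other JARID2 window, and in 20.4% of all windows. EPOP is named without a sequence.

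The levels of the members spanned a wide range. Per kilobase of the longest GENCODE transcript, PHF19 was the highest, with 101 ± 1.1 CPM per kilobase in mock (SD, n = 2). PHF1 followed with 21.6 ± 0.73, JARID2 with 18.5 ± 1.5, MTF2 with 13.5 ± 0.14 and EPOP with 7.01 ± 0.11 CPM per kilobase (mock, SD, n = 2 each). AEBP2 at 4.88 ± 0.20 and LCOR at 2.93 ± 0.18 CPM per kilobase were the lowest (mock, SD, n = 2 each). On this scale, the ranges of neighbouring members over all 4 libraries did not overlap, and the closest pair was PHF1 (20.7 to 22.4) and JARID2 (17.4 to 20.4). The order depends on the length used, and single members were not compared by median transcript length. For AEBP2 the median annotated transcript has 975 bases and the longest 5099, and for PHF19 they have 572 and 4241. Per kilobase of the longest coding sequence, PHF1, MTF2 and JARID2 overlapped, at 28.3 to 30.7, 27.6 to 31.5 and 26.8 to 31.4 CPM per kilobase, while PHF19 remained far above them at 237 to 265. LCOR is the least certain, since its annotated transcripts run from 245 to 16004 bases and gene-level counts do not say which were read.

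PRC2.1 transcripts outnumbered PRC2.2 transcripts in every library. PRC2.1 members made up 86.8% and 85.7% of the summed accessory level per kilobase in mock and 86.2% in both JAZF1-SUZ12 libraries. The range of the JAZF1-SUZ12 libraries lay within that of the mock libraries. PHF19 alone made up between 59.2% and 62.1% of the sum, JARID2 between 10.4% and 11.3%, and PHF1 between 11.5% and 12.8%. The sum holds 5 PRC2.1 genes and 2 PRC2.2 genes, and the PRC2.1 share was not computed without PHF19. No test was made of these shares.

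**Figure D1:**
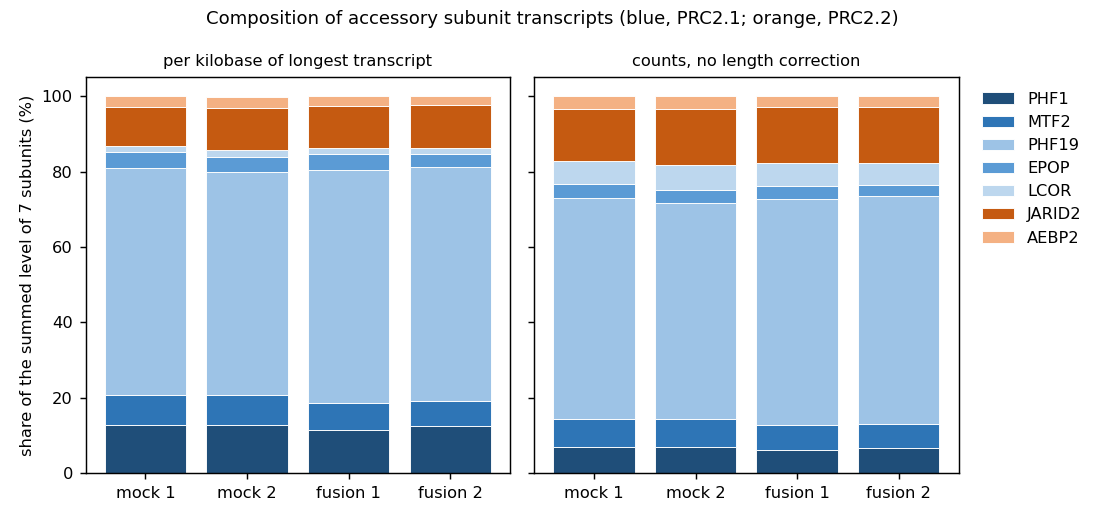
Share of the summed level of the 7 accessory subunits in each library (y axis, percent), per kilobase of the longest transcript (left) and from counts with no length correction (right). PHF19 takes between 59.2% and 62.1% per kilobase and between 57.5% and 60.5% of counts in the 4 libraries.

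Fold changes between the groups were small. Of the 7 members, PHF19 was the 1 called at an adjusted p under 0.05 (edgeR quasi-likelihood test, adjusted over 14750 genes), and it was higher in JAZF1-SUZ12 libraries. None was called lower. The background was 24.7% of genes called, with 13.3% higher and 11.4% lower, so the share of members called was not above the background. At an unadjusted p under 0.05, PHF19 and JARID2 passed, 2 of 7, against 36.0% of all genes. The median log2 fold change was 0.00062 over the members and 0.0032 over all genes tested. The members ran from -0.13 (MTF2) to 0.14 (JARID2) on the log2 scale. The groups did not overlap for 4 members, while 61.3% of all genes did not overlap. PHF19 and JARID2 were higher without overlap, as were 31.0% of all genes, and MTF2 and AEBP2 were lower, as were 30.3%.

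**Figure D2:**
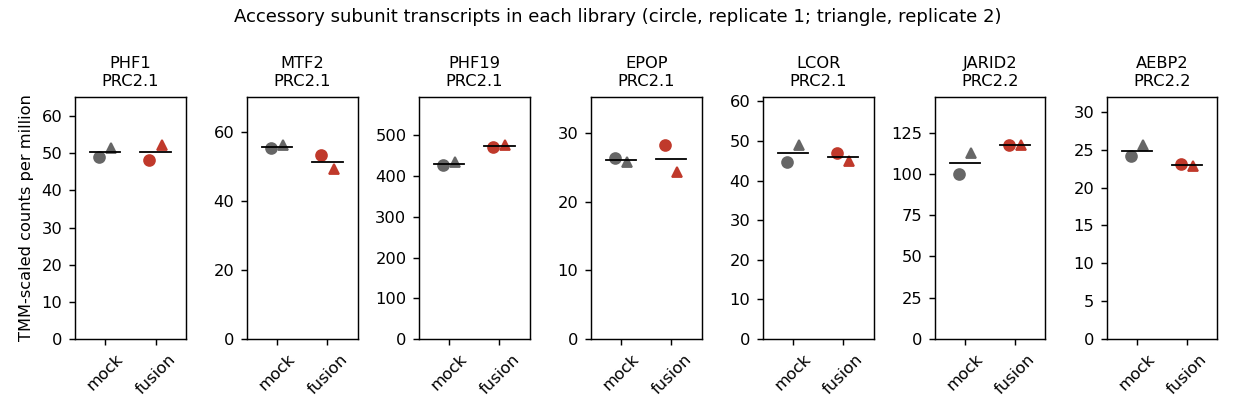
TMM-scaled CPM (y axis, from 0, with a scale of its own for each gene) of the 7 accessory subunits in the mock (grey) and JAZF1-SUZ12 (red) libraries; each point is a library and the line is the group mean. The groups are apart for PHF19, JARID2, MTF2 and AEBP2 and overlap for PHF1, EPOP and LCOR.

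Among the Polycomb-like proteins, PHF19 (ENSG00000119403; GRCh38 chromosome 9, 120855652 to 120894896, minus strand) was measured at 426 and 433 CPM in mock and at 472 and 476 CPM in JAZF1-SUZ12 libraries. Both JAZF1-SUZ12 libraries were above both mock libraries, and within each group the libraries lay close together (SD 1.14% of the mean in mock and 0.601% in JAZF1-SUZ12). The counting error of PHF19 in a single library was 0.921% to 1.11%, so these SDs, from 2 libraries each, are near or below what sampling alone gives. PHF19 rose by 0.14 on the log2 scale, with a standard error of 0.041 and a 95% interval from 0.053 to 0.23 (edgeR, adjusted p = 0.0205). This is a 1.10-fold change, with an interval from 1.04-fold to 1.17-fold. The call was lost when either mock library was left out, with adjusted p-values of 0.147 without mock replicate 1 and 0.0793 without mock replicate 2 (edgeR), although the log2 fold change was still 0.12 and 0.14. With DESeq2 on the same counts PHF19 was also called (adjusted p = 0.0109), and it was the only member called, while 16.3% of all genes were.

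MTF2 (ENSG00000143033; chromosome 1, 93079235 to 93139081) was at 55.3 and 56.1 CPM in mock and at 53.1 and 49.1 CPM in JAZF1-SUZ12 libraries. Both JAZF1-SUZ12 libraries were below both mock libraries, and replicate 2 was the lower of them. The log2 fold change was -0.13 with an interval from -0.27 to 0.011, which did not pass (edgeR, adjusted p = 0.174). Leaving out JAZF1-SUZ12 replicate 1 gave -0.19, and leaving out JAZF1-SUZ12 replicate 2 gave -0.070.

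PHF1 (ENSG00000112511; chromosome 6, 33410399 to 33416453) was at 49.1 and 51.5 CPM in mock and at 48.2 and 52.2 CPM in JAZF1-SUZ12 libraries. The mock values lay between the JAZF1-SUZ12 values. Its log2 fold change was 0.00062, with an interval from -0.14 to 0.14 (edgeR, adjusted p = 0.996), and its sign changed with the scaling. PHF1 shares 12 bases of its span with CUTA on the opposite strand, and whether strand was used in counting is not given in the sources used here. Of the 3 paralogs, then, 1 was called higher, and the other two were not called in either direction.

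The 2 remaining PRC2.1 members, which are not Polycomb-like proteins, were not called. EPOP (ENSG00000273604; chromosome 17, 38671703 to 38675421, minus strand) was at 26.3 and 25.8 CPM in mock and at 28.3 and 24.3 CPM in JAZF1-SUZ12 libraries. The JAZF1-SUZ12 libraries lay on either side of the mock libraries and had the largest relative spread among the members (SD 10.7% of the mean). Its log2 fold change was 0.0047, with an interval from -0.19 to 0.20 (edgeR, adjusted p = 0.978). LCOR (ENSG00000196233; chromosome 10, 96832282 to 96995959) was at 44.8 and 49.0 CPM in mock and at 46.9 and 45.1 CPM in JAZF1-SUZ12 libraries. The JAZF1-SUZ12 values lay between the mock values. Its log2 fold change was -0.031, with an interval from -0.18 to 0.12 (edgeR, adjusted p = 0.792).

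In PRC2.2, JARID2 (ENSG00000008083; chromosome 6, 15246296 to 15522040) was at 100.03 and 112.6 CPM in mock and at 117.4 and 117.3 CPM in JAZF1-SUZ12 libraries. Both JAZF1-SUZ12 libraries were above both mock libraries, but mock replicate 2 lay nearer to them than to mock replicate 1. JARID2 had a log2 fold change of 0.14, as PHF19 did, with a larger standard error of 0.060 and an interval from 0.015 to 0.27. It did not pass after adjustment (edgeR, adjusted p = 0.0975, unadjusted p = 0.0305). The value rested on which mock library was used: it was 0.052 without mock replicate 1 (adjusted p = 0.686) and 0.22 without mock replicate 2 (adjusted p = 0.0276; edgeR). JARID2 was also called when the test was limited to genes averaging 50 counts or more (edgeR, adjusted p = 0.0429), where 26.3% of genes were called.

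AEBP2 (ENSG00000139154; chromosome 12, 19404045 to 19720801) was the member with the fewest counts, from 398 to 566 in a library. It was at 24.1 and 25.6 CPM in mock and at 23.1 and 22.8 CPM in JAZF1-SUZ12 libraries. Both JAZF1-SUZ12 libraries were below both mock libraries by a small margin. The log2 fold change was -0.12, with an interval from -0.30 to 0.070 (edgeR, adjusted p = 0.375). The 2 PRC2.2 members thus differed in sign, and neither was called.

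The intervals give the sizes of change that these libraries leave possible. The lowest bound over the 7 members was 0.811-fold (AEBP2) and the highest was 1.21-fold (JARID2). The counting error of a single library ran from 0.921% of the count for PHF19 to 5.01% for AEBP2, and the standard error of the log2 fold change ran from 0.041 for PHF19 to 0.091 for EPOP. Values missing the threshold do not show that a member was equal in the groups. The counts of PHF1, PHF19, EPOP and JARID2 were whole numbers within 0.001 in every library, and those of MTF2, LCOR and AEBP2 were not in some.

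**Figure D3:**
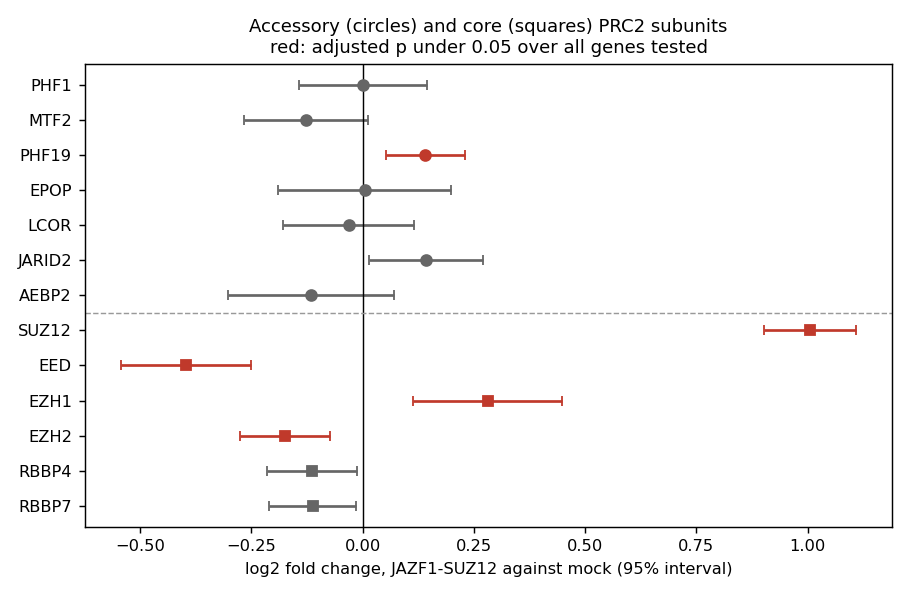
Log2 fold change between JAZF1-SUZ12 and mock (x axis, positive where JAZF1-SUZ12 is higher) with its 95% interval for the accessory subunits (circles) and the core subunits (squares), from the edgeR fit over all genes. The accessory subunits lie between -0.13 and 0.14, and SUZ12 stands at 1.01.

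The other PRC2 genes were taken from a list of 6 core subunits. SUZ12 was at 137 and 133 CPM in mock and at 276 and 265 CPM in JAZF1-SUZ12 libraries, a log2 fold change of 1.01 with an interval from 0.90 to 1.11. How much of this count comes from the fusion and how much from endogenous SUZ12 cannot be told at the gene level. Among the remaining 5, 1 was called higher (EZH1) and 2 lower (EED and EZH2), against 24.7% of all genes called, and their median log2 fold change was -0.11. EZH1, at 29.4 and 29.8 CPM in mock and 34.0 and 37.7 CPM in JAZF1-SUZ12 libraries, was no longer called without JAZF1-SUZ12 replicate 2 or without mock replicate 1 (edgeR, adjusted p = 0.206 and 0.0686) or with DESeq2 (adjusted p = 0.104). EZH2, the main catalytic subunit of dividing cells, was at 197 and 192 CPM in mock and 172 and 173 CPM in JAZF1-SUZ12 libraries, and its call was lost without mock replicate 1 (edgeR, adjusted p = 0.0833). EED, which binds the methylated histone tail, fell from a mock mean of 55.5 ± 1.19 CPM to 42.3 ± 2.72 CPM (SD, n = 2 each). EED passed with an adjusted p of 0.000544 (edgeR), and its interval, -0.54 to -0.25 on the log2 scale, lies below the fold change of each accessory subunit but overlaps the intervals of MTF2 and AEBP2. The histone-binding subunits RBBP4 and RBBP7 had log2 fold changes of -0.11 each and did not pass (edgeR, adjusted p = 0.0955 and 0.0907).

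The level of each accessory subunit was then set against that of SUZ12 in the same library. With the mock mean of this ratio as 100%, the JAZF1-SUZ12 libraries stood between 44.8% (MTF2) and 56.2% (PHF19). The group mean was lowest for MTF2, at 45.7% ± 1.2, followed by AEBP2 at 46.0% ± 0.87 (SD, n = 2 each), and it was 54.9% for both PHF19 and JARID2 (SD 1.9 and 1.5, n = 2 each). In mock libraries the ratio lay between 92.5% and 108%, and all 7 members were lower without overlap. Over all genes, 90.7% were apart on this ratio in either direction and 86.1% were lower, so the separation says nothing particular to the members. It follows from the SUZ12 counts, since the fitted fold changes of the members lay between 0.915 (MTF2) and 1.10 (JARID2).

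**Figure D4:**
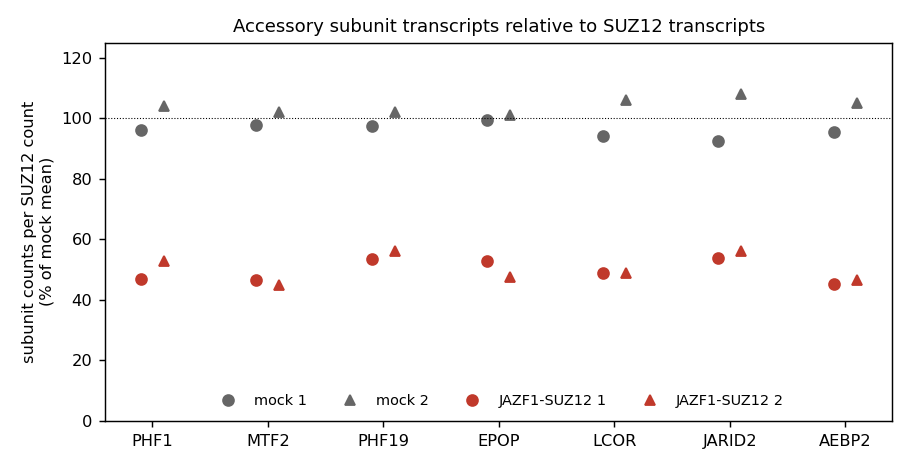
Counts of each accessory subunit per SUZ12 count in the same library, as a percentage of the mock mean (y axis, from 0), for mock (grey) and JAZF1-SUZ12 (red) libraries. The JAZF1-SUZ12 libraries sit between 44.8% and 56.2%, and the mock libraries between 92.5% and 108%.

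Genes that bind or resemble the members were counted as well. LCORL, the paralog of LCOR that encodes PALI2, was at 26.5 and 26.2 CPM in mock and 30.6 and 28.2 CPM in JAZF1-SUZ12 libraries, and was not called (log2 fold change 0.15; edgeR, adjusted p = 0.203). EZHIP, an inhibitor of PRC2, had 1 count in 1 mock library and 0 in the others, which is under the limit of 3 counts that a count of 0 allows. SKIDA1 had from 11 to 47 counts in a library and was not called (edgeR, adjusted p = 0.495). The partners of EPOP, namely the Elongin subunits ELOB and ELOC and the deubiquitinase USP7, had log2 fold changes of -0.035, -0.043 and -0.064, and 0 of 3 were called (edgeR) or had an unadjusted p under 0.05, and DESeq2 called none of them (adjusted p = 0.871, 0.827 and 0.513).

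The genes nearest to PHF19 in pattern were CHRNB1, NFKBIL1 and CRKL. Their centred log2 CPM over the 4 libraries differed from that of PHF19 by 0.0057, 0.0087 and 0.0093 (root mean square), among 11620 genes compared, of which 72 lay within 0.02. With 4 libraries in 2 groups, such a match says little more than that the size of the difference is alike. CRKL, at 630 and 624 CPM in JAZF1-SUZ12 libraries, was called (edgeR, adjusted p = 0.0157), while the less abundant CHRNB1 and NFKBIL1 were not (edgeR, adjusted p = 0.573 and 0.278).

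The authors' deposited table called none of the 7 members, the lowest adjusted p in it being 0.455 (JARID2), while it called 8.5% of its 15895 genes with an adjusted p. For JARID2, AEBP2 and EPOP, the log2 fold changes in the authors' deposited table (0.14, -0.11 and -0.0028) lay within 0.01 of those from the counts. For the Polycomb-like proteins they did not. In the authors' deposited table PHF19 stood at 0.025 (adjusted p = 0.900), PHF1 at -0.12 and MTF2 at 0.078, so PHF19 was much nearer to 0 there and MTF2 had the opposite sign. The difference from the counts was -0.12 for PHF19, -0.12 for PHF1 and 0.21 for MTF2 (authors' deposited table minus edgeR, log2). Of 11812 genes with a mean signal of at least 50, 26.8% differed by more than 0.1 between the authors' deposited table and the counts. The core subunits differed too. SUZ12 stood at 1.26 in the authors' deposited table, outside the interval from the counts, and the gap of 0.26 was larger than that of any member. EZH1 (0.11, adjusted p = 0.810) and EZH2 (-0.16, adjusted p = 0.185) were not called in the authors' deposited table, whereas EED was (adjusted p = 0.00485). What sets the 2 sets of values apart is not given in the sources used here and was not tested.

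**Figure D5:**
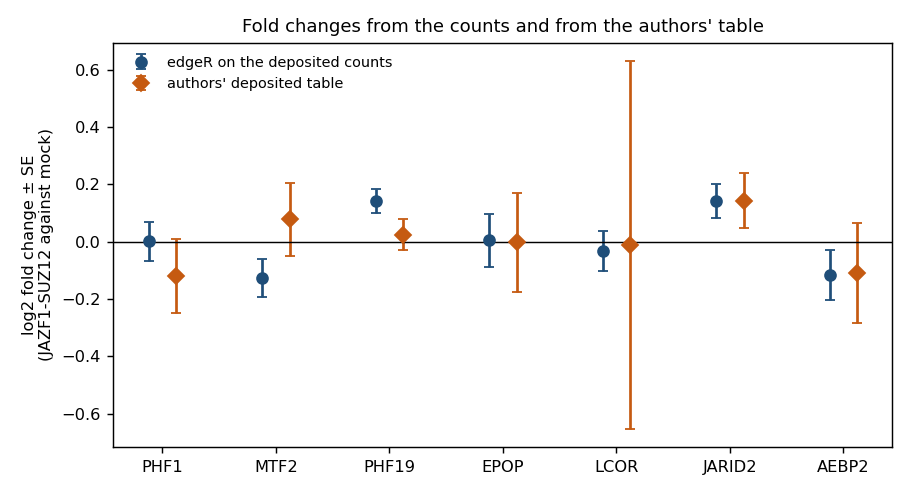
Log2 fold change between JAZF1-SUZ12 and mock (y axis, positive where JAZF1-SUZ12 is higher) with its standard error for each accessory subunit, from edgeR on the deposited counts (blue circles) and in the authors' deposited table (orange diamonds). PHF19 and MTF2 differ between the sources, and LCOR has a standard error of 0.641 in the authors' deposited table.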

How the data were processed

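Poly(A)-selected, directional libraries were made from K562 RNA, per the labels' protocols. The authors deposited estimated counts per gene, not normalized, per the file headers. The submitters' processing notes name fastp 0.20.1, FastQC 0.11.7, MultiQC 1.5, kallisto 0.46.2, DESeq2 1.30.1 and hg38, with no roles; the annotation is not given in the sources used here. The authors' table of their comparison holds a mean signal normalized for depth, a log2 fold change with its standard error, a score (their test statistic) and p-values, per the file headers. Nothing was added to these values.

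Estimated counts were rounded, since whole counts had been assumed. Genes were kept with filterByExpr (14750), scaled with TMM and tested with edgeR 4.0.16 (R 4.3.3) by the quasi-likelihood F test with group as the only term, two-sided, Benjamini-Hochberg adjusted over all genes tested at 0.05. CPM values are TMM-scaled; those of marker lists are per total counts. Intervals use the standard error (the size of the fold change over the square root of F) at 95%. Scripts were tested on simulated data. Counting errors cover sampling only. Positions and lengths are from GENCODE 29 on GRCh38, to which 35410 of 35606 IDs matched, and start regions are from RefSeq. The members and lists were chosen with earlier results of these data known. Named were all members, the PRC2 lists, JAZF1 and the 3 genes nearest in pattern to each called member.

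Alternatives were DESeq2 1.42.0 or its size factors, total counts, limma-voom (limma 3.58.1), a minimum mean of 50 counts or no filter, unrounded counts, summed symbols, a replicate block, a threshold of 0.01, other lengths and leaving out each library.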

Additional observations from a re-analysis of the deposited data

How the results depend on the processing

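At the threshold of 0.05, PHF19 kept its direction and its call under all 9 alternative fits that used all libraries. Its log2 fold change was 0.13 to 0.16 there (edgeR, DESeq2 or limma-voom adjusted p from 0.00396 to 0.0210). The call was not kept without a mock library (0.12 and 0.14 without mock replicates 1 and 2). At a threshold of 0.01, PHF19 was not called in the main fit (edgeR, adjusted p = 0.0205). Nor were EZH1 and EZH2 (edgeR, adjusted p = 0.0159 and 0.0134). JARID2 was called with a mean of at least 50 counts (0.17) and without mock replicate 2 (0.22). MTF2 and AEBP2 kept their direction and were never called. Fitted near 0, PHF1 changed sign with DESeq2 size factors (-0.0011), DESeq2 (-0.0028), no filter (-0.0081) and the replicate block (-0.0024), and EPOP with limma-voom (-0.0099) and no filter (-0.0042). Over the fits without 1 library, PHF1 ranged from -0.062 to 0.048, EPOP from -0.10 to 0.12, LCOR from -0.10 to 0.023, MTF2 from -0.19 to -0.070, PHF19 from 0.12 to 0.14, JARID2 from 0.052 to 0.22 and AEBP2 from -0.17 to -0.084. SKIDA1 ranged from -0.48 to 1.07, ELOB from -0.13 to 0.063 and ELOC from -0.11 to 0.024, the sign changing without JAZF1-SUZ12 replicate 2, and none was called. In fits without 1 library the lone sample is assumed to vary like the other group.

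The 3643 genes called became 2407 with DESeq2 and 2045 at 0.01. The 1955 higher became 1356 with DESeq2 and 1255 at 0.01. The 1688 lower became 1051 with DESeq2 and 790 at 0.01. A stricter threshold calls fewer genes by construction, and why DESeq2 called fewer was not tested. Without 1 library, 2568 to 3782 genes were called, 1498 to 1841 higher and 1070 to 1941 lower, the lowest count of lower genes being without JAZF1-SUZ12 replicate 2. With the replicate block, 4061 genes were called and the adjusted p of PHF19 was 0.00668 (edgeR), and no call of a member changed. The deviations of same-numbered libraries correlated weakly (r = 0.035 over 11826 genes) and no label says that a number marks a shared source, so the block is given only as a check. The PRC2.1 share of 86.2% in mock and in JAZF1-SUZ12 libraries was, in that order, 95.1% and 95.5% by median transcript length, 88.2% and 88.5% by longest coding sequence, 82.3% and 82.2% with no length correction, and 86.0% in both groups without LCOR. No reference protein table was used, so the longest annotated coding sequence stood in for it. With 2 libraries a group, the 95% intervals of the members reached from 0.811-fold to 1.21-fold.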

Other observations

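LCOR stood apart in precision. The authors' deposited table put its log2 fold change at -0.011, where the standard error was 0.641, whereas the standard errors of the other 6 members in that table lay between 0.0552 and 0.174. Of 4922 genes within 2-fold of the mean signal of LCOR in the authors' deposited table, 3 had a standard error at least as large (0.061%), and the median was 0.134. From the counts, the standard error of LCOR was 0.070 with edgeR and 0.103 with DESeq2, close to that of PHF1 at a similar count (0.068 and 0.099). The cause was not tested.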
